A study of Mus musculus with 51 samples.

Results

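Sorted transplanted mammary tumors of the Wap-Cre;Etv6-NTRK3 mouse were set against sorted hyperplastic mammary cells of the same model. The members were taken from the array labels: 7 arrays of tumor cells sorted after growth in a transplant recipient and 4 arrays of sorted hyperplastic cells, 11 of the 51 arrays of the series. All 11 samples came from animals in which Cre recombinase, expressed from the promoter of whey acidic protein (Wap), switched on a conditional Etv6-NTRK3 fusion allele at the Etv6 locus and a Rosa-Stop-lacZ reporter, and all were sorted for lacZ. The transplanted tumors had been grown in RAG2-/- mice for 1 to 4 passages. They derived from 5 mice: D279 gave 3 arrays (a tumor at passages 2 and 4, labelled D279T1P2 and D279T1P4, and a second tumor, D279T2P2), and E344, F402, F433 and D396 gave 1 each (E344T2P1, F402TP2, F433T4P1 and D396TP3). The hyperplastic cells came from 4 further mice (G376, F493, G420 and H464). A set of 8 arrays of sorted primary tumors, lacZ-sorted from 6 mice of the same genotype, was used for comparison only. It shares mice with the transplants: F433T1, F433T3 and F433T4 came from F433, and E344T from E344. F433T4 is the primary tumor from which F433T4P1 was grown.

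ETV6-NTRK3 joins an ETS-family transcription factor to the kinase domain of the neurotrophin receptor TRKC and yields a constitutively active tyrosine kinase, known from human secretory breast carcinoma, which signals through the RAS-MAPK and PI3K pathways. Wap is a milk protein gene, so its promoter acts in milk-producing alveolar epithelium of pregnancy and lactation. The mammary gland holds luminal epithelium (keratins 8 and 18), a basal or myoepithelial layer (keratins 5 and 14), and a stroma of fibroblasts, fat, vessels and immune cells. Mice without RAG2 cannot rearrange antigen receptor genes and lack mature B and T cells, while their macrophages and fibroblasts remain. The labels name RAG2-/- recipients for the transplants alone, so that host and stage cannot be told apart between these groups, and no group here lacks the fusion.

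Values are log2 probe set intensities with a floor of 5, and a gene is called when limma's Benjamini-Hochberg adjusted p, over 15150 genes fitted on all 6 groups of the series, is below 0.05. The sorted arrays were alike in scale, with array medians of 52.3 to 55.2 on the linear scale. They differed in control probe sets. The spike-in signal (BioB and BioC, transcripts added in a constant amount) was 9.07 ± 0.70 on transplanted tumor arrays (SD, n = 7) and 10.53 ± 1.71 on hyperplasia arrays (SD, n = 4), where the G376 and F493 arrays had 12.53 and 11.35 and the other two 9.29 and 8.95 (exact permutation test, two-sided, p = 0.0970, adjusted over 3 control measures 0.191). The ratio of 3' to 5' Gapdh control signal put the arrays in separate classes: below -0.1 on 4 transplanted, 4 primary and 3 hyperplasia arrays, and above it on 3, 4 and 1. Among the 11 arrays 587 genes (3.87%) were higher on all 7 arrays of the lower class than on all 4 of the other and 392 (2.59%) were lower, 53 and 3 of them by over 2 log2 units in the class means. Of the 587 and 392 genes, 5 and 1 were called between transplanted tumor and hyperplasia. Each class holds both groups. Values with and without such arrays are given beside some of the results they touch, not all. Without the G376 and F493 arrays none was called in the milk, luminal progenitor, EGF family, RAS-MAPK feedback and cholesterol lists. The same held for the laminin, Notch, cartilage-type matrix, immediate early, cyclin, cytokine, neutrophil, adipocyte and MHC class II lists. The hormone-sensing, IGF, p53 target, NRF2 target, hypoxia and metalloproteinase lists each kept 1 call.

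In transplanted tumors 351 genes (2.32%) were higher and 599 (3.95%) lower than in hyperplasia, 6.27% of all genes in either direction, and the median difference over all genes was 0.02. All 7 transplanted arrays lay above all 4 hyperplasia arrays for 192 genes (1.27%) and below them for 340 (2.24%), and 100 (0.66%) and 228 (1.5%) of these were also called. The other 622 called genes had overlapping groups. The number of calls rests on the spread being estimated from all groups: with the 2 groups fitted alone 39 genes (0.26% of 15011) were higher and 130 (0.866%) lower, and 148 of the 950 genes were among these. Without the G376 and F493 arrays 6 (0.0396%) were higher and 115 (0.759%) lower, and on the lower Gapdh class alone 3.17% of genes were higher and 2.42% (366) lower. Transplants of 1 mouse are related, so the mouse of origin entered the fit as a random block.

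Car12, a membrane-bound carbonic anhydrase, had the largest rise among called genes with no overlap. It lay between 7.47 and 10.05 on the 7 transplanted arrays (median 8.92) and at 5.00, 5.24, 5.00 and 5.47 in the hyperplastic cells of G376, F493, G420 and H464. The groups did not overlap, and the lowest transplanted array was E344T2P1. The fitted difference, in which the block weights mice, was 3.52 ± 0.62 (SE, limma adjusted p = 0.000188), and it was called in 30 of 31 alternative fits. Sostdc1, a secreted antagonist of BMP and Wnt signals, lay between 8.10 and 11.21 (median 10.01) in transplanted tumors and at 5.00, 6.29, 6.00 and 5.40 in hyperplasia, a difference of 3.48 ± 1.03 (adjusted p = 0.0309) that was called in 14 of 31 alternatives. Its call was lost without the G376, F493 or H464 array and without D279T1P2, F433T4P1 or D396TP3. Serpinb11, an intracellular serpin, was between 6.53 and 9.82 (median 7.93) in transplanted tumors and at the floor on 3 hyperplasia arrays and at 5.03 on the G420 array. Its difference was 3.10 ± 0.63 (adjusted p = 0.00124).

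**Figure D1:**
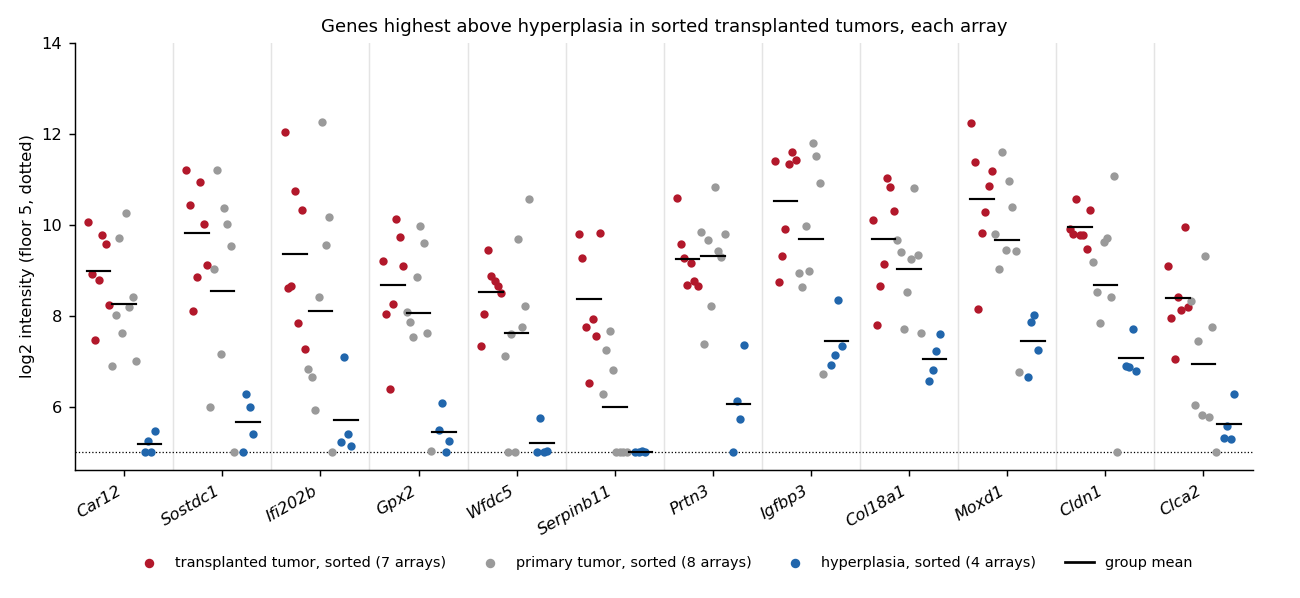
Log2 intensity of the 12 genes with the largest rise among called genes with no overlap, on every array (points) of sorted transplanted tumors, primary tumors and hyperplasia, with group means (bars). In each gene all 7 transplanted points sit above all 4 hyperplasia points, and the 8 primary tumors spread over both ranges for several genes.

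Prtn3, proteinase 3 of neutrophil granules, rose by 3.02 ± 0.54 (adjusted p = 0.000243). It was between 8.65 and 10.59 (median 9.16) in transplanted tumors and at 5.00, 6.12, 5.74 and 7.35 in hyperplasia. The other 11 neutrophil granule and alarmin genes tested did not pass the threshold, which 6.27% of all genes passed, and the median of the 12 was 0.47. Gpx2, an epithelial glutathione peroxidase, rose by 3.22 ± 0.71 (adjusted p = 0.00299), between 6.39 and 10.12 in transplanted tumors (median 9.09) against 5.48, 6.08, 5.00 and 5.25 in hyperplasia. Cldn1, a claudin of tight junctions, was the most even of these rises, between 9.47 and 10.57 in transplanted tumors (median 9.79) and at 6.89, 6.86, 7.71 and 6.78 in hyperplasia (difference 2.67 ± 0.63, adjusted p = 0.00539). Igfbp3, which binds insulin-like growth factors, rose by 2.86 ± 0.66 (adjusted p = 0.00429). The matrix gene Col18a1, the source of endostatin, rose by 2.82 ± 0.73 (adjusted p = 0.0121). Ifi202b, of the interferon-inducible HIN-200 family, rose by 3.42 (adjusted p = 0.0142), Wfdc5, of the WAP four-disulfide core family, by 3.17 (0.0274), the monooxygenase-like Moxd1 by 2.68 (0.0166) and the chloride channel accessory gene Clca2 by 2.65 (0.0322). With the 2 groups fitted alone 10 of these 12 genes were still called, all but Ifi202b and Col18a1. With the 3 sorted groups alone only 3 were, Car12, Serpinb11 and Prtn3. The spike-in signal as a covariate left 5 called, and leaving out the G376 array left 6. Without the G376 and F493 arrays the differences were 2.45 to 3.88 in size, but only Car12 and Gpx2 were called, and on the 4 arrays of the higher Gapdh class, with 1 hyperplasia array, none of the 12 was called at differences of 1.49 to 4.23.

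Promoter sequence was looked up for the 24 genes with the largest rises and falls among called genes with no overlap. Shared control of these genes was not tested. RefSeq (GRCm38.p6) gave a promoter, 250 bases before and 50 after the start, for 16 of them. The AP-1 letters TGANTCA, searched on both strands, were in the promoters of 2 genes, against 7.81% of all 32851 promoters, and the hypoxia response core ACGTG in 1 (Jchain) against 19.6%. Of the 2 genes, Serpinb11 rose and Mmp3 fell, so both are printed with the match in capitals. The promoter of Car12, the largest rise among called genes with no overlap, is printed for comparison and has none. A match is a string of letters, not a bound site.
Serpinb11, plus strand, chr1:107362064-107362363: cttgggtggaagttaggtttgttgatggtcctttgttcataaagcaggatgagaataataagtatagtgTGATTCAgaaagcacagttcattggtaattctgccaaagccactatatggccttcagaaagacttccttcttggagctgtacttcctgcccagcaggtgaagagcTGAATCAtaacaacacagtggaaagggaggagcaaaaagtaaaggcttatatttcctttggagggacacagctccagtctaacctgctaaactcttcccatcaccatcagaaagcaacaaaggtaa
Mmp3, plus strand, chr9:7445572-7445871: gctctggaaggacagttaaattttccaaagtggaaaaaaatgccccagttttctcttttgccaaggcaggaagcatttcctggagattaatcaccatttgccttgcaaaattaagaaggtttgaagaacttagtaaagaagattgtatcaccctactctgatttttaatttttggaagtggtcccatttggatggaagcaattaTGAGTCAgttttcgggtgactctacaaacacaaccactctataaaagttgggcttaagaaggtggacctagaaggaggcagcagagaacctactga
Car12, plus strand, chr9:66713436-66713735: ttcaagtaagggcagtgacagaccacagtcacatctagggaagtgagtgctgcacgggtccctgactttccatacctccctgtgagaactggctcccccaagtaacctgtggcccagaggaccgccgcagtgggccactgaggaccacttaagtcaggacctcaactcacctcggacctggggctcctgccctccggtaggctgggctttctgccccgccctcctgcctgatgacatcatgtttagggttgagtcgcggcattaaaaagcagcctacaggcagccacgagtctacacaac

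Basal keratins were high in most transplanted tumors. Krt17, a keratin of basal and stratified epithelium, lay between 5.32 and 11.18 in transplanted tumors (median 10.25) and at 5.00, 5.01, 5.93 and 5.00 in hyperplasia (difference 3.96 ± 1.10, adjusted p = 0.0202). Only the E344T2P1 array, at 5.32, reached into the hyperplasia range. Cdh3, P-cadherin of basal cells, was between 6.35 and 8.51 (median 7.90) in transplanted tumors and at 5.00, 5.18, 5.71 and 5.80 in hyperplasia, with no overlap (2.07 ± 0.48, adjusted p = 0.00446). Krt5 did not overlap either, between 8.48 and 13.06 (median 11.70) in transplanted tumors and at 7.02, 8.46, 7.74 and 7.59 in hyperplasia, but its difference of 3.32 ± 1.09 missed the threshold (adjusted p = 0.0569), as did that of Krt14 (2.02 ± 0.68, adjusted p = 0.0605). The contractile gene Myh11 of myoepithelium and smooth muscle fell by 2.08 ± 0.55 (adjusted p = 0.0151), at 8.90 in D396TP3 and 5.00 to 5.27 in the other 6 transplanted tumors, against 7.09, 6.85, 8.25 and 8.38 in hyperplasia. Of 13 basal and myoepithelial genes tested 2 rose and 1 fell, beside 2.32% and 3.95% of all genes. Their median difference was 0.15, which turned negative in 5 alternatives, to -0.20 without the G376 and F493 arrays.

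Krt8 averaged 12.19 ± 0.64 in transplanted tumors and 12.05 ± 0.42 in hyperplasia (SD, n = 7 and 4), Krt18 averaged 12.14 ± 0.83 and 12.18 ± 0.32, and Epcam 11.85 ± 0.49 and 11.03 ± 0.63, so that the sorted cells of both groups carried the markers of luminal epithelium. None of 12 luminal keratin and adhesion genes was called by limma (2 at an unadjusted p under 0.05), and their median difference of 0.53 became -0.08 without the G376 and F493 arrays. Sox10, a transcription factor of luminal progenitors (and of Schwann cells), rose by 1.13 ± 0.33 (adjusted p = 0.0311), with 9.11 to 10.71 in transplanted tumors (median 9.86) and 7.91, 8.47, 9.35 and 9.49 in hyperplasia, an overlap at F402TP2. It was the 1 of 10 luminal progenitor genes to pass, beside 6.27% of all genes. Both Pgr, the progesterone receptor, and Cited1, an estrogen receptor coactivator, fell in the hormone-sensing list. They were 2 of 8 genes, beside 3.95% of all genes called lower, at a list median of -0.77. With the 2 groups alone none of the 8 was called. Without the G376 and F493 arrays 1 was, as on the lower Gapdh class alone. Pgr was between 5.00 and 6.54 in transplanted tumors (median 6.02) and at 7.56, 7.31, 6.68 and 6.96 in hyperplasia (-1.35 ± 0.36, adjusted p = 0.0158). Cited1 was at the floor in all 7 transplanted and all 8 primary tumors, and in hyperplasia at 6.31, 5.00, 6.69 and 6.98 (adjusted p = 0.0013). The hyperplasia mean was 2.37-fold above the floor. As the F493 array was itself at the floor, this is not a strict lower bound on the fall. Esr1, the estrogen receptor, was not called (-0.93 ± 0.38, adjusted p = 0.143).

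Of 17 milk protein and alveolar genes only Wap was called, a count near the 6.27% called over all genes. Wap was between 6.83 and 9.90 (median 7.94) in transplanted tumors and at 10.94, 9.11, 11.16 and 11.56 in hyperplasia, where only the F493 array reached into the tumor range (-2.70 ± 0.78, adjusted p = 0.0267). No gene of the list was called with the 2 groups alone, without the G376 and F493 arrays, or on the lower Gapdh class alone. Csn2, beta-casein, averaged 13.34 ± 0.21 in transplanted tumors and 13.30 ± 0.18 in hyperplasia. Its levels overlapped between the groups. The list's median was -0.20. The fusion partners were measured by probe sets that need not lie in the fused exons: Etv6 averaged 8.69 ± 0.39 in transplanted tumors and 8.47 ± 0.42 in hyperplasia, and Ntrk3 5.59 ± 0.58 and 5.64 ± 0.60, neither called. These values do not check the labels.

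Of 17 genes of glycolysis and the hypoxia response 4 rose, none fell and 13 did not pass, beside 2.32% of all genes higher and 3.95% lower. Their median was 0.67, and 16 of the 17 differences were positive. Beside Car12 these were Pfkl, phosphofructokinase (1.77 ± 0.48, adjusted p = 0.0174), Pdk1, which inhibits pyruvate dehydrogenase (1.61 ± 0.36, adjusted p = 0.00343), and Pkm, pyruvate kinase (1.15 ± 0.26, adjusted p = 0.0032). Pdk1 was between 7.87 and 9.35 in transplanted tumors (median 8.84) and at 6.30, 6.96, 7.57 and 7.92 in hyperplasia, which overlap only at F402TP2 and H464. Pkm was between 10.56 and 12.24 (median 11.58) in transplanted tumors, against 10.23, 10.37, 10.20 and 10.84 in hyperplasia. With the 2 groups fitted alone 1 of the 17 was called, and the median was 0.61.

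Of 12 cholesterol synthesis and uptake genes 3 rose, none fell and the median was 0.88: Dhcr7 by 1.74 ± 0.45 (adjusted p = 0.0117), Sqle, squalene epoxidase, by 1.53 ± 0.37 (adjusted p = 0.00789), and Fdft1, squalene synthase, by 1.21 ± 0.38 (adjusted p = 0.042). Sqle was between 7.42 and 10.16 in transplanted tumors (median 9.18) and at 6.32, 7.85, 8.19 and 7.71 in hyperplasia. All 3 genes were lowest among the transplanted arrays in F402TP2, where they reached into the hyperplasia range. With the 2 groups alone none of the 12 was called by limma, at a median of 0.95. Over all genes 2.32% were higher and 3.95% lower in the main fit. The glutathione and NRF2 target list moved both ways, with Gpx2 and Gsta4 (3.05 ± 0.81, adjusted p = 0.0154), a glutathione transferase, higher, and Gclc (-1.58 ± 0.35, adjusted p = 0.00295), the catalytic subunit for glutathione synthesis, and Gstm1 (-1.40 ± 0.39, adjusted p = 0.022) lower, of 15 genes.

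Among growth factor genes Tgfa, a ligand of the EGF receptor, was between 7.89 and 10.16 in transplanted tumors (median 8.52) and at 5.77, 6.90, 7.46 and 6.42 in hyperplasia, with no overlap (2.13 ± 0.52, adjusted p = 0.00752). It was the 1 of 9 EGF family ligands and receptors called, at a list median of 0.71. Over all genes 2.32% were called higher and 3.95% lower. Of 14 RAS-MAPK feedback genes 2 rose and the median was 0.45. Dusp6, the phosphatase that ERK signalling induces, lay between 10.62 and 11.59 (median 11.01) in transplanted tumors, above all of 8.94, 9.54, 10.17 and 9.30 in hyperplasia (1.54 ± 0.34, adjusted p = 0.00298), and the ETS factor Etv5 differed by 1.55 ± 0.46 (adjusted p = 0.0299). In the IGF list of 17 genes Igf1 (-2.62 ± 0.66, adjusted p = 0.0102) and Igfbp6 (-2.20 ± 0.40, adjusted p = 0.00031) fell beside the rise of Igfbp3. Igf1 lay between 5.00 and 8.35 in transplanted tumors (median 5.59) and at 9.62, 8.92, 8.62 and 8.48 in hyperplasia. Igf2, an imprinted fetal growth factor, differed by 1.57 ± 0.70, which did not pass (adjusted p = 0.189).

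None of the 8 AP-1 subunit genes was called by limma, with 1 at an unadjusted p under 0.05. Fos averaged 12.54 ± 0.40 in transplanted tumors and 12.75 ± 0.28 in hyperplasia, Jun 10.55 ± 0.26 and 10.73 ± 0.31, and Junb 11.28 ± 0.41 and 11.57 ± 0.38. Fosl1 came nearest (1.28 ± 0.44, adjusted p = 0.0653). Of 20 immediate early genes 1 was called, the stress gene Gadd45b, lower by 1.33 ± 0.36 (adjusted p = 0.0154). That count is near the share over all genes, where 2.32% were called higher and 3.95% lower. Of 13 p53 target genes Perp, a desmosome gene (2.55 ± 0.69, adjusted p = 0.0165), and Phlda3 (2.38 ± 0.40, adjusted p = 0.000105) were higher, and the death receptor Fas (-0.80 ± 0.21, adjusted p = 0.0158) lower. Phlda3, an inhibitor of AKT, lay between 9.56 and 10.91 in transplanted tumors (median 10.07) and at 7.17, 7.75, 7.67 and 7.98 in hyperplasia. All 7 transplanted arrays lay above the hyperplasia arrays.

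Proliferation genes gave few calls. None of 19 mitosis genes (median 0.13) and none of 17 DNA replication genes (median -0.23) was called by limma, with 1 in each list at an unadjusted p under 0.05. Mki67, the Ki-67 antigen, was lower on all 7 transplanted arrays (8.17 to 8.90, median 8.66) than on the 4 hyperplasia arrays (9.15, 9.19, 9.01 and 8.94), yet its difference of -0.55 ± 0.38 was far from the threshold with the spread of all groups (adjusted p = 0.444). Ccne1, cyclin E1, was the 1 of 15 cyclin and inhibitor genes called (1.13 ± 0.31, adjusted p = 0.0177), near the 6.27% of all genes called. Beyond these, 1 or 2 members were called in the cartilage-type matrix list (Col9a3, 2.33 ± 0.59, adjusted p = 0.00984), in the laminin list (Lama3, 2.14, adjusted p = 0.0468, and Lama5, 0.99, adjusted p = 0.0253) and in the Notch list (Notch2, -1.17, adjusted p = 0.0101). Of the 43 lists, 15 held no gene that limma called among their 184 members (25 at an unadjusted p under 0.05), and their medians lay between -0.33 and 0.53.

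**Figure D2:**
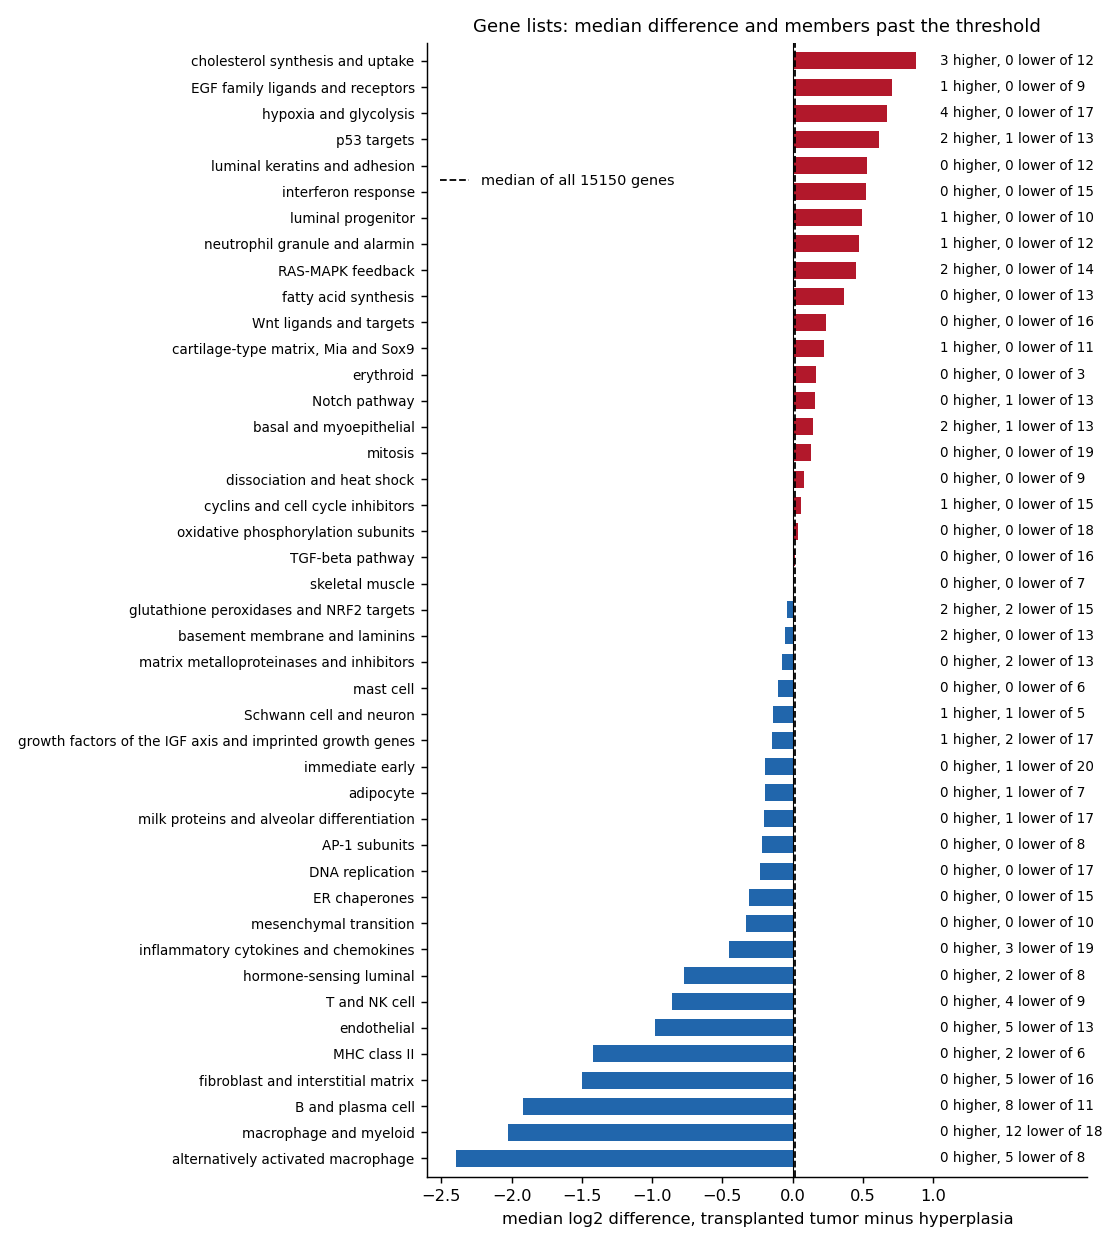
Median log2 difference, transplanted tumor minus hyperplasia, of each of 43 gene lists (bars), with the number of members called higher and lower at the right and the median of all genes as a dashed line at 0.02. The longest bars to the left are the alternatively activated macrophage list at -2.39, the macrophage list at -2.02 and the B and plasma cell list at -1.92, and the longest to the right is cholesterol synthesis and uptake, at 0.88.

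The largest falls were in genes of immune cells and of the stroma. Jchain, which joins immunoglobulin polymers in plasma cells, was at the floor of 5 on 6 transplanted arrays and at 6.86 in F402TP2, and at 12.22, 13.20, 8.85 and 11.53 in hyperplasia. The difference was -6.03 ± 0.82 (adjusted p = 1.77e-06). Igha, the constant region of IgA, was at 6.94 to 7.19 on all 7 transplanted arrays and at 10.91, 11.46, 8.83 and 10.85 in hyperplasia (-3.43 ± 0.37, adjusted p = 6.61e-09). Igkv6-14 and Iglv1, light chain segments, were at the floor in every transplanted tumor. By the hyperplasia means they were at least 16.99-fold and 16.8-fold lower there (adjusted p = 2.27e-07 and 2.32e-06). Probe sets of immunoglobulin segments can bind related segments, so the segment named is uncertain.

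**Figure D3:**
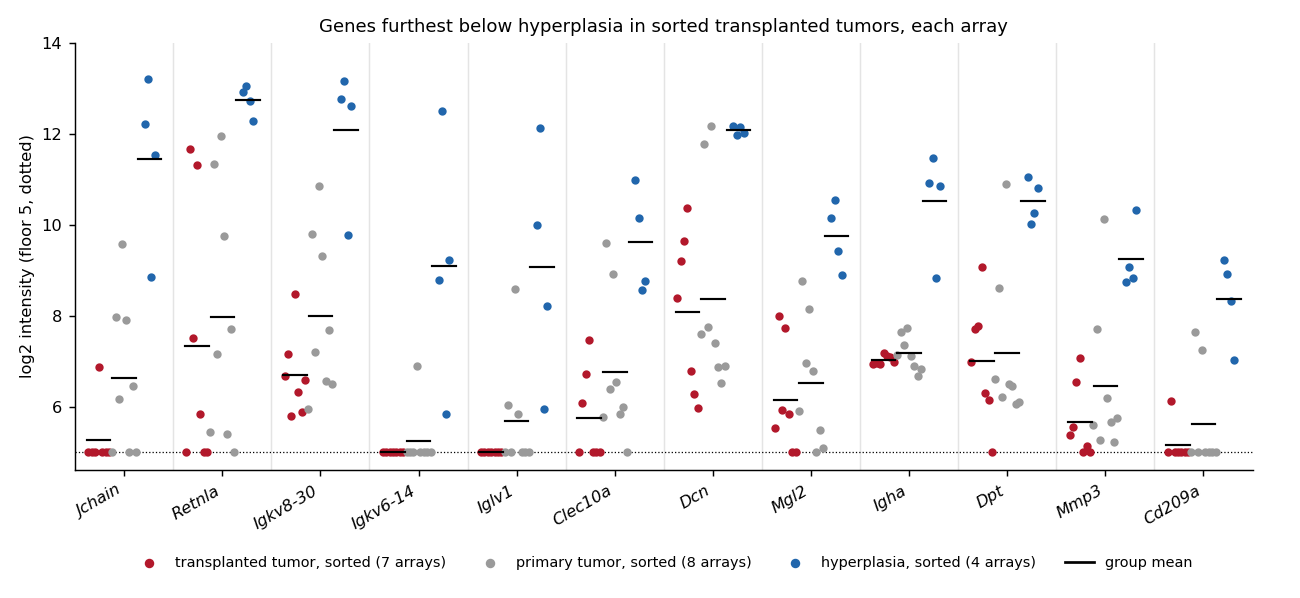
Log2 intensity of the 12 genes with the largest fall among called genes with no overlap, on every array (points) of sorted transplanted tumors, primary tumors and hyperplasia, with group means (bars) and the floor of 5 (dotted). All 7 transplanted points sit below all 4 hyperplasia points in each gene, many of them on the floor, and the immunoglobulin genes are lowest among hyperplasia on the G420 array.

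Of 11 B and plasma cell markers 8 fell and none rose, with a median of -1.92, and 4 of 11 fell with the 2 groups alone. Over all genes 3.95% and 0.866% were lower in these fits. The mean of these markers was 5.69 to 6.29 on the transplanted arrays and 8.92, 9.77, 6.58 and 8.23 on the hyperplasia arrays, so that the G420 array lay close to the tumors. All these arrays are of cells sorted for lacZ, which Cre in milk-producing epithelium switches on. In samples of many cells, fewer cells of a type and less of its RNA per cell cannot be told apart. Of 9 T and NK cell markers 4 fell (median -0.86): Thy1, which fibroblasts also express (-2.87 ± 0.57, adjusted p = 0.000839), Cd28 (-1.86, adjusted p = 3.21e-05), Cd3d (-1.26, adjusted p = 0.00446) and Nkg7 (-0.87, adjusted p = 0.05 after rounding). Without the G376 and F493 arrays 4 B and plasma cell markers and none of the T and NK cell markers were called by limma, at medians of -0.97 and -0.22. In primary tumors, for which the labels name no RAG2-/- host, the same lists had medians of -1.81 (8 of 11 lower) and -0.92 (4 of 9 lower) against the same hyperplasia arrays. Transplanted minus primary the medians were -0.11 and 0.09.

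Of 18 macrophage and myeloid markers 12 fell and none rose (median -2.02), and of 8 genes of alternative activation 5 fell (median -2.39). The share lower over all genes was 3.95%. Retnla, a secreted product of alternatively activated macrophages, was between 5.00 and 11.66 (median 5.85) in transplanted tumors, where D279T2P2 and F402TP2 were high at 11.66 and 11.32, and at 12.91, 13.05, 12.72 and 12.29 in hyperplasia (-5.32 ± 1.2, adjusted p = 0.00376). Clec10a and Mgl2, galactose-binding lectins of macrophages and dendritic cells, fell by 3.68 ± 0.62 (adjusted p = 9.95e-05) and 3.53 ± 0.51 (6.32e-06). Cd209a, a lectin of dendritic cells, was at the floor on 6 transplanted arrays and at 6.11 in D279T2P2, against 9.22, 8.91, 8.32 and 7.02 in hyperplasia (-3.13 ± 0.34, adjusted p = 1.21e-08). Csf1r, the receptor for macrophage colony-stimulating factor, lay between 7.18 and 12.15 in transplanted tumors, at 12.15 in both E344T2P1 and F402TP2, against 13.36, 13.17, 12.55 and 11.60 in hyperplasia (-2.71 ± 0.72, adjusted p = 0.0155), and these groups overlapped.

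The macrophage list varied among the transplants more than among the hyperplasias. Its mean was 7.52, 8.95, 9.73 and 10.07 in D279T1P2, D279T2P2, E344T2P1 and F402TP2, 7.46, 6.35 and 6.82 in F433T4P1, D396TP3 and D279T1P4, and 10.62, 10.66, 9.90 and 9.55 in hyperplasia. The last 3 transplants are those of the higher Gapdh class. On the lower Gapdh class alone the median was -1.28 with 2 genes called, and on the higher class, with 1 hyperplasia array, -2.91 with 9 called. With the 2 groups alone 2 of the 18 were called, and without the G376 and F493 arrays none was called by limma, at a median of -1.59. Of 6 MHC class II genes H2-DMa (-1.84, adjusted p = 0.0487) and Ciita (-0.79, adjusted p = 0.03) fell, with a median of -1.42. Over all genes 3.95% were called lower. The groups overlapped in each of the 6 genes. None of the 6 was called with the 2 groups alone (median -1.33) or without the G376 and F493 arrays (-1.27). On the lower Gapdh class alone 1 was called, at a median of -0.88.

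**Figure D4:**
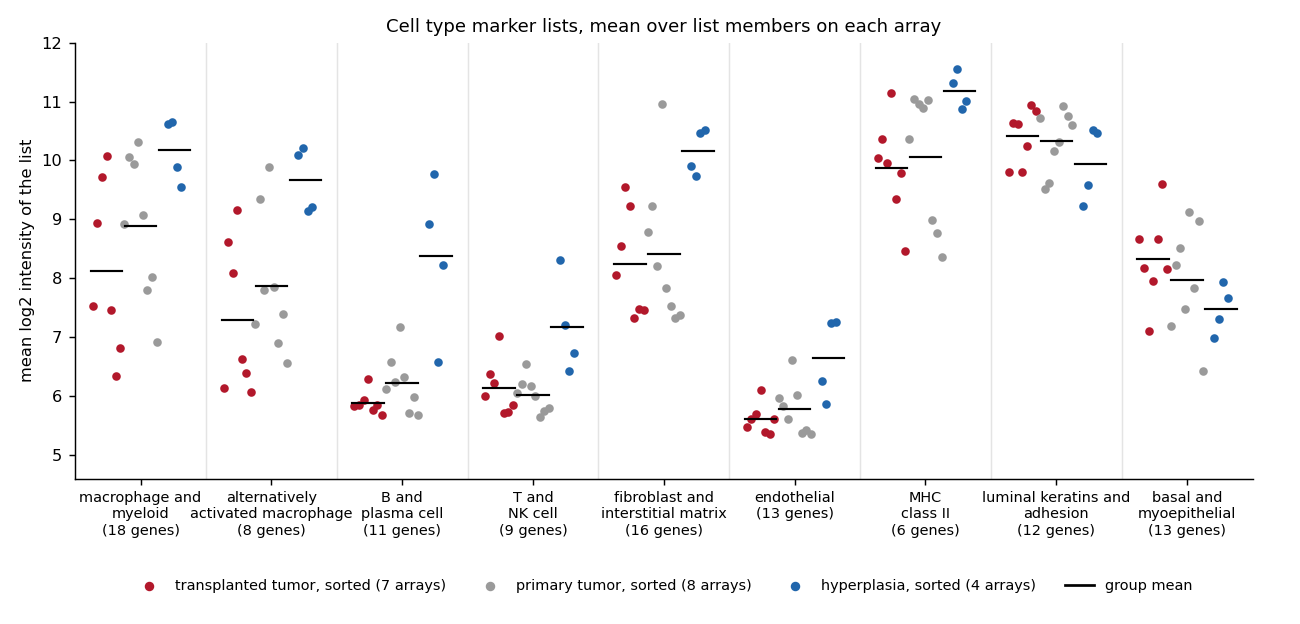
Mean log2 intensity of the members of 9 cell type marker lists on each array (points) of sorted transplanted tumors, primary tumors and hyperplasia, with group means (bars). Macrophage and fibroblast lists spread widely among the transplanted and primary tumors, the B and plasma cell list spreads mostly among the hyperplasias (6.58 to 9.77), and the luminal list overlaps in all groups.

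All 16 fibroblast and interstitial matrix genes tested had negative differences (median -1.5), of which 5 were called, beside 3.95% of all genes called lower. Dcn, decorin, was between 5.98 and 10.36 in transplanted tumors (median 8.40) and at 12.16, 11.98, 12.14 and 12.01 in hyperplasia, a difference of -3.62 ± 1.10 (adjusted p = 0.0372). It was called in 14 of 31 alternatives. Pdgfra, the PDGF receptor that marks fibroblasts, was between 5.27 and 7.51 in transplanted tumors (median 6.05) and at 9.10, 8.85, 9.30 and 9.28 in hyperplasia (-2.79 ± 0.47, adjusted p = 0.0001), and it was called in 30 of 31. Dpt, dermatopontin, and Lum, lumican, fell by 3.27 ± 0.75 (adjusted p = 0.00429) and 2.75 ± 0.74 (adjusted p = 0.0167). The list's mean was 8.05 to 9.55 in the 4 transplants of the lower Gapdh class and 7.33 to 7.47 in the other 3, against 9.74 to 10.52 in hyperplasia, and no transplant reached the hyperplasia range. Its median was -0.74 with 1 gene called on the lower class alone, -2.84 with 4 called on the higher, and -1.85 with 2 called without the G376 and F493 arrays. With the Gapdh class as a term, 5 fibroblast genes were called at a median of -1.35 and 15 macrophage genes at a median of -1.79.

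Of 13 endothelial markers 5 fell (median -0.98), among them Plvap of fenestrated endothelium (-1.97 ± 0.44, adjusted p = 0.00299), Vwf (-1.76, adjusted p = 0.0133), Esam (-1.69, adjusted p = 0.00336) and the angiopoietin receptor Tek (-1.59 ± 0.28, adjusted p = 0.000179). Tek was between 5.00 and 6.08 in transplanted tumors (median 5.10) and at 7.37, 6.29, 7.09 and 7.19 in hyperplasia. Here leaving out the G376 and F493 arrays raised the count to 8 of 13, at a median of -1.61. Lpl, lipoprotein lipase, was the 1 of 7 adipocyte genes called, lower in transplanted tumors (-3.11 ± 0.65, adjusted p = 0.00146), where 3.95% of all genes were called lower. All 7 differences were negative, at a median of -0.20, and Fabp4 narrowly missed the threshold (-3.01, adjusted p = 0.0516). Of the 13 metalloproteinase and inhibitor genes Mmp3, stromelysin (-3.27 ± 0.67, adjusted p = 0.00122), and Timp2 (-1.80 ± 0.52, adjusted p = 0.0254) fell. Mmp3 was between 5.00 and 7.08 in transplanted tumors (median 5.38) and at 8.74, 9.07, 8.83 and 10.32 in hyperplasia. Of 19 cytokine and chemokine genes Cxcl12 (-2.42 ± 0.72, adjusted p = 0.031), a chemokine of stromal cells, Il6 (-2.11 ± 0.58, adjusted p = 0.0201) and Ccl5 (-1.78 ± 0.48, adjusted p = 0.0157) fell. Pmp22, of Schwann cells and fibroblasts, fell by 1.40 ± 0.39 (adjusted p = 0.0203).

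In all 31 alternative fits 16 genes were called in the same direction, and they were chosen for that after their values were seen. Of these 15 were lower, among them Jchain, Igha and Cd209a. Inmt, an indolamine methyltransferase, and Tph1, tryptophan hydroxylase of serotonin synthesis, were at the floor in all 7 transplanted and all 8 primary tumors and at 7.59 ± 0.70 and 7.08 ± 0.54 in hyperplasia (SD, n = 4), which makes them at least 6.01-fold and 4.22-fold lower. Enpep, aminopeptidase A, was at least 7.13-fold lower. Fap, fibroblast activation protein, and the metalloproteinase inhibitor Reck fell by 2.26 and 1.65. The 1 gene higher in every fit was Psrc1, which encodes a microtubule-binding protein of the spindle. It was between 8.61 and 9.43 on the transplanted arrays and at 5.72, 6.90, 7.09 and 7.33 in hyperplasia, a difference of 2.45 ± 0.30 (adjusted p = 2.45e-07).

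Sorted primary tumors were compared with the transplanted tumors directly, since both sets share the hyperplasia arrays. Mice E344 and F433 gave arrays to both tumor sets, so the sets are not fully independent. No gene was called between transplanted and primary tumors by limma (0 of 15150, 0%), with 606 (4%) at an unadjusted p under 0.05 and a smallest adjusted p of 0.105. Other settings called between 0 and 7 genes, the most on the higher Gapdh class alone. Primary tumors differed from hyperplasia in 195 genes that were higher (1.29%) and 378 lower (2.5%). For Car12 the fitted difference from hyperplasia was 3.52 in transplanted and 3.00 in primary tumors, for Prtn3 3.02 and 3.18, and for Jchain -6.03 and -4.74. For Serpinb11 it was 3.10 in transplanted tumors and 1.16 in primary tumors (adjusted p = 0.326). Transplanted minus primary for Serpinb11 was 1.94 ± 0.49 (adjusted p = 0.44), so the 2 tumor sets are not shown to differ. For Cldn1 and Krt17 the differences from hyperplasia were 2.67 and 3.96 in transplanted tumors and 1.44 and 2.94 in primary tumors, which were not called there (adjusted p = 0.197 and 0.118). The interferon response list had a median of 0.52 in transplanted and -0.28 in primary tumors with no gene called in either, and 0.79 between them.

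Among themselves the transplants correlated at Pearson r of 0.760 to 0.934 across 11779 genes (median 0.882, 21 pairs), and with hyperplasia arrays at 0.701 to 0.914 (median 0.832, 28 pairs). Genes are not independent replicates, so these values describe the arrays. The closest pair was F433T4P1 and its own primary tumor, at r = 0.952, with 477 of the 15150 genes tested (3.15%) over 2-fold apart. Passages 2 and 4 of D279 tumor 1, which fall in different Gapdh classes, had r = 0.895 and 1528 genes (10.1%) over 2-fold apart. Some genes, chosen after their values were seen, differed widely among the transplants. Wif1, a secreted Wnt inhibitor, was at 10.81, 10.79 and 11.81 in the 3 D279 arrays and 5.00 to 5.91 in the other 4. Tspan8, a tetraspanin, was high at 11.61, 11.11 and 10.32 in E344T2P1, F433T4P1 and D396TP3 and 5.00 to 5.89 in the rest. Susd5 instead followed the Gapdh class, between 9.16 and 9.90 in the 4 transplants of the lower class and between 5.00 and 5.84 in the others.

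**Figure D5:**
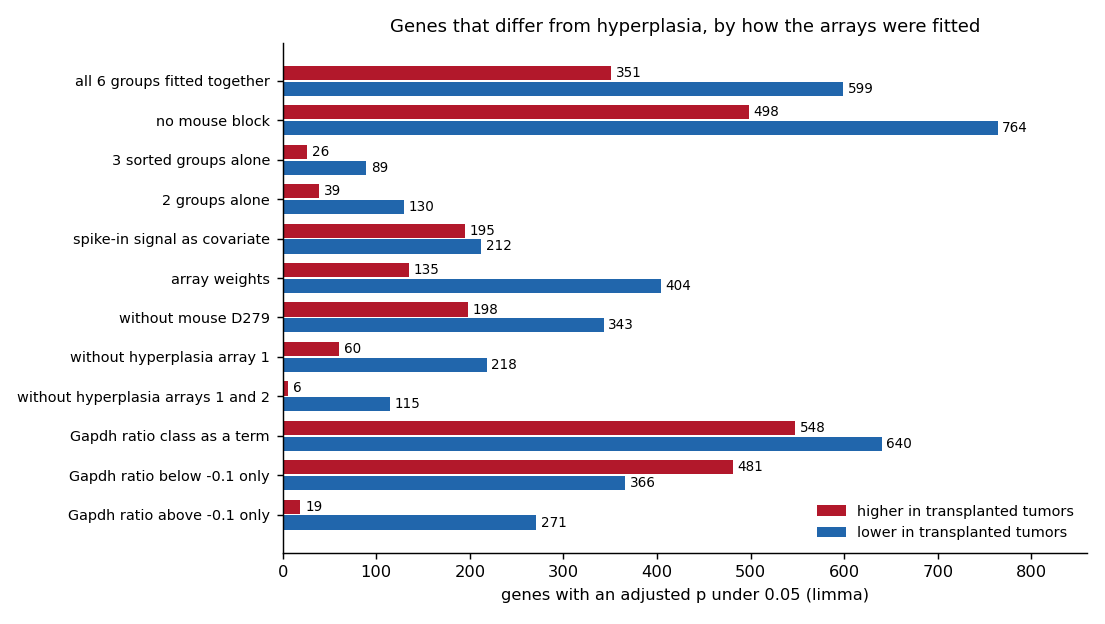
Number of genes called higher (upper bar) and lower (lower bar) in transplanted tumors against hyperplasia under 12 ways of fitting the arrays. With all 6 groups 351 are higher and 599 lower, without the G376 and F493 arrays 6 and 115, and more genes are lower than higher in each fit shown except on the lower Gapdh class alone, where 366 are lower.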

How the data were processed

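RNA of 51 samples had been measured on Affymetrix mouse arrays of 45101 probe sets. The deposited values are intensities on a linear scale, scaled by the authors so that array medians lie close together (52.3 to 55.2 on the 11 arrays compared); how they did so is not given in the labels used here. Values below 32 were set to 32 (37.4% of all values), so the log2 floor is 5, and 1 probe set with 2 extreme values was left out. Genes were named through the platform annotation, matched to RefSeq: 34944 probe sets have 1 symbol, 932 several and 9160 none, and no gene was named from a probe set with several. Each gene was represented by its probe set of highest mean, and 15150 genes above the 40th percentile on at least 4 arrays were tested.

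All 6 groups were fitted with limma 3.58.1 (R 4.3.3; lmFit and eBayes) with a random block for the mouse of origin (consensus correlation 0.358) and Benjamini-Hochberg adjustment. The 2 arrays of 1 unsorted tumor were averaged. Because the block weights related arrays, fitted differences are not always equal to differences of group means. Nothing in the labels says more of how tissue was pooled, so p-values refer to these samples. They and the SEs rest on 1 spread per gene shared by all 6 groups, which can differ from that of the 2 groups compared. For Igha the SD was 0.10 in transplanted tumors and 1.16 in hyperplasia, beside an SE of 0.37. Very small p-values of genes near the floor therefore do not measure the spread among the hyperplasia arrays. The number of arrays limits the precision.

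Named genes are the 12 largest rises and 12 largest falls among called genes with no overlap and a higher-group mean above the median of all probe sets, up to 4 called members of each list in each direction (up to 2 where none was called), the largest differences between tumor groups among genes called in both comparisons (there were none), and a fixed set. A gene at the floor on all arrays of a group has only a bound, taken from the other group's mean over the floor. The bound is strict only where every array of the other group is above the floor. Members and lists were chosen with earlier results of these data known. The script was tested on simulated data. Alternatives changed the samples fitted, the block, the floor, the filter, the normalization and the probe set rule.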

Additional observations from a re-analysis of the deposited data

Results flagged for a closer look

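For each named gene and list, the highest or lowest array was compared with the rest of its group by Dixon's criterion, which 21 of 328 groups (6.40%) met. Chance alone meets it in about 1 group in 20 when values are normally distributed. That rate does not hold for groups tied at the floor, where any single value above the floor meets it, so the share cannot be judged against it. Among transplanted tumors the F402TP2 array stood apart upward in Jchain (6.86), Vwf (5.27), Cd28 (5.70), Hdc (7.53) and the mean of the B and plasma cell list (6.29), and downward in Hspa8 (12.50). The D279T2P2 array was high in Cd209a (6.11) and Alas2 (5.76). Krt17 was low in E344T2P1 (5.32) and Myh11 high in D396TP3 (8.90), and the cyclin list mean was high in D279T1P2 (8.36).

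Among hyperplasias the G420 array was high in Serpinb11 (5.03), Cldn1 (7.71), Krt17 (5.93) and Fosl1 (7.82) and low in Igkv8-30 (9.78). The F493 array was high in Ifi202b (7.10) and Wfdc5 (5.76). The G376 array was low in Lama5 (6.14) and in the erythroid list mean (5.37), and the H464 array was high in Mb (5.40). Several of these values are a step above a group at the floor.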

How the results depend on the processing

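The count of 950 called genes was within 1.5 times in 20 of 31 alternatives. It was 169 with the 2 groups alone (39 higher, 130 lower), 115 with the 3 sorted groups alone (26 and 89), 111 with the 2 groups and 1 value for each mouse (29 and 82), 121 without the G376 and F493 arrays (6 and 115), 75 with the 2 groups and without those arrays (8 and 67), 407 with spike-in signal added as covariate (195 and 212), 541 without mouse D279 (198 and 343), 539 with array weights (135 higher), and 290 on the higher Gapdh class alone (19 and 271). A floor of 100 gave 190 higher, the Gapdh class as a term 548 higher, and the lower class alone 366 lower. Leaving out 1 hyperplasia array gave 278 to 1284 calls (60 to 584 higher, 218 to 748 lower), with 278 without G376 and 505 without F493, and leaving out 1 transplanted array gave 731 to 1179 (446 to 758 lower). Transplanted against primary tumors gave 2 calls with quantile normalization, 2 without D279, 1 with array weights, 2 and 7 on the lower and higher Gapdh class, and 0 to 3 on leaving out 1 array. The Gapdh ratio difference lay between -0.034 and 0.12 on leaving out 1 array. None of the 78 called named genes changed direction in any alternative, and 36 kept their call with the 2 groups alone and 20 without G376 and F493. Differences that changed sign were all of genes not called: Csn2 at 0.020 with 1 value for each mouse (in either fit), 0.038 with no mouse block, 0.011 with quantile normalization and 0.030 with the 2 groups alone; Krt18 at 0.027 with array weights, 0.19 with quantile normalization, 0.19 on the higher Gapdh class and 0.0054 without D279; Ntrk3 at 0.22 with array weights, 0.0085 and 0.0050 with floors of 100 and 64, and 1.13 on the higher class, where Mcm4 was at 0.27, Hdc at -0.039 and Etv6 at -0.038; Cpa3 at 0.0012 with a floor of 100; and Grhl2 at -0.046 with the mean of probe sets. With the spike-in covariate Alas2 was at -0.010, Tnni2 at 0.57, Etv6 at -0.14, Krt8 at -0.20 and Jun at 0.076. Without G376 and F493, Tnni2 was at 0.19, Etv6 at -0.14, Ntrk3 at 0.37, Krt8 at -0.18 and Jun at 0.020, and with the 2 groups alone as well at 0.11, -0.077, 0.37, -0.17 and 0.028. On leaving out 1 array Etv6 lay between -0.019 and 0.32, Ntrk3 between -0.22 and 0.24, Csn2 between -0.13 and 0.0021, Krt8 between -0.049 and 0.28, and Krt18 between -0.19 and 0.19. The cause was not tested. The Gapdh class fits, and the 2-group fits without G376 and F493 or with 1 value for each mouse, were chosen after seeing the data. No paired analysis was possible because the replicate numbers do not pair transplanted tumors with hyperplasias, which came from different mice.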
